A study of Mus musculus with 11 samples.

Results

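The hnRNP and SR families hold the abundant RNA-binding proteins that coat new transcripts and steer splicing. A set of 37 of these genes was taken by name in the mouse forebrain at E14.5: 10 SR genes (Srsf1 to Srsf7, Srsf9, Srsf10 and Srsf11) and 27 genes of the hnRNP, PCBP and FET families with Raly and Matr3. All 37 were listed among the 48440 genes of the RNA-seq count table and among the 32285 genes of the scRNA-seq matrices. The genes were picked by family, not by a value. The study compared wild-type (WT) mice with Syncrip conditional knockout (cKO) mice, to learn what Syncrip, itself an hnRNP protein (hnRNP Q), does in neural progenitor cells (NPCs). RNA-seq covered 3 WT and 3 cKO cultures of NPCs that were taken from the walls of the lateral ventricles at E14.5, and the methods describe such cultures as kept in EGF and bFGF for 3 passages. scRNA-seq covered the dorsal telencephalon of 1 WT and 1 cKO embryo of the same litter at E14.5. The cKO mice were Syncrip fl/fl on a C57BL/6 background, with exons 2, 3 and 4 between loxP sites and Cre driven by Emx1, which is active in the dorsal forebrain. The Cre line of the cultures is not given in the labels, nor is it said whether each culture came from its own embryo. Each genotype had cultures with many and with almost no Y-linked counts, so its 3 cultures were not all from 1 embryo. Cultures of like sex may share a source, so p-values measure the spread between these cultures, which may be partly technical.

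SR proteins carry RNA recognition motifs and a tail rich in serine and arginine. They mostly promote the use of an exon when bound inside it, and their tail is phosphorylated by SRPK and CLK kinases and carried into the nucleus by transportins. hnRNP proteins often counter them by blocking exons, and also act in mRNA export, stability and translation. Many genes of both families hold a so-called poison exon, whose inclusion sends the transcript to nonsense-mediated decay (NMD) and lets the protein limit its own level. In the developing cortex these families are known for switching splice patterns between dividing progenitors and neurons.

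Most members hold a promoter feature that their selection did not use. RefSeq promoter sequences (GRCm38.p6) were matched by symbol for 32 of the 37 genes, and the 250 bases before the start were searched on both strands. The GC box GGGCGG, the core of the site bound by Sp1-type factors, was present in 24 of 32 members (75.0%) against 32.9% of 27025 promoters. The CCAAT box, searched as CCAAT, was present in 15 of 32 members (46.9%) against 34.5%, and the ETS site CCGGAAGT in 5 of 32 (15.6%) against 2.93%. The TATA box TATAAA was found in 3 members (9.38%) against 13.0%. A match is a description of letters, not a bound site. The 27025 promoters were not matched to the members for expression, so whether these shares are particular to the families was not tested. Of the 19 matched genes that were called higher in cKO cultures, 15 held a GC box. Shown are the last 200 bases before the start for the 2 largest rises and the 1 largest fall among the 11 called genes whose window lay wholly outside the deposited gene, with any GC box in capitals on either strand. Srsf6 lies at chr2:162931308-162931507 on the plus strand, Hnrnph1 at chr11:50376790-50376989 on the plus strand and Hnrnpa0 at chr13:58128557-58128756 on the minus strand.
Srsf6: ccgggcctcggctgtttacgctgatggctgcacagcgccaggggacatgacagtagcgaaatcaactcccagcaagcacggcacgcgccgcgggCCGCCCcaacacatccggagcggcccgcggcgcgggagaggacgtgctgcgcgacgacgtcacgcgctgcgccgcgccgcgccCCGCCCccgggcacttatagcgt
Hnrnph1: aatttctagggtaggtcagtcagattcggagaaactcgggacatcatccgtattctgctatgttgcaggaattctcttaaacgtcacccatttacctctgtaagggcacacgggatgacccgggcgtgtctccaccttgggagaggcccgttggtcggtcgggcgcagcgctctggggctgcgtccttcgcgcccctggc
Hnrnpa0: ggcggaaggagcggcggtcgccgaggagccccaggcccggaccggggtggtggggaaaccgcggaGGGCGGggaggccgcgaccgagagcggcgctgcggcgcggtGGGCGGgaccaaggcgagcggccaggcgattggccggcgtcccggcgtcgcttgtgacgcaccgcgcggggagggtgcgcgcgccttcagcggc
The windows of Srsf6 and Hnrnpa0 each hold 2 GC boxes, and that of Hnrnph1 holds 0. Their G and C content is 72.5%, 80.0% and 58.0% for Srsf6, Hnrnpa0 and Hnrnph1.

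The cultures held 16962903 to 22708400 counts each and the scRNA-seq libraries 100172392 (WT) and 111313526 (cKO) UMIs (unique molecular identifiers, 1 per captured transcript). Syncrip stood at 77.9, 79.8 and 79.9 CPM (counts scaled to a common library size) in WT and at 90.3, 88.7 and 81.5 CPM in cKO cultures. In apical progenitors (APs) it had 313 CPM in the WT embryo and 323 CPM in the cKO embryo. The first value covers the whole gene and the second the 3′ end, so neither checks the loss of exons 2, 3 and 4. In the paper, RNA-seq tracks of cKO neurosphere cultures at E14.5 are reported to lack these exons. WT cultures 1 and 2 and cKO culture 1 held 5903 to 9232 counts of Y-linked genes against at most 1 in the other cultures, and the WT embryo held 22085 Y-linked UMIs against 211 in the cKO embryo, which held 105503 Xist UMIs, so sex differed among the cultures and between the embryos. With sex as a term in the culture fit, 21 members rose and 4 fell; compared with the fit without it, Hnrnpl lost its call (adjusted p = 0.068, edgeR) and Matr3 was called higher (adjusted p = 0.045, edgeR). The culture table gave almost no counts to coding genes that lie wholly inside other genes: 1175 of 1177 had 0 counts, against 3494 of 12359 (28.3%) with no shared span. Srsf2, which overlaps Mettl23 and Mfsd11 over its full span, was such a gene, with 0 counts in all 6 cultures, and its level there is not known.

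The members were mostly higher in cKO cultures. Their summed level was 8212, 8400 and 8281 CPM in WT against 9298, 9413 and 9476 CPM in cKO cultures, a ratio of 1.13. The SR genes took 1684, 1567 and 1598 CPM in WT and 2100, 2087 and 2146 CPM in cKO (ratio 1.31), the other families 6529, 6833 and 6683 CPM against 7198, 7326 and 7329 CPM (ratio 1.09). The groups did not overlap in any of these sums. Of the 36 members tested, 21 rose and 4 fell at an adjusted p under 0.05 (edgeR quasi-likelihood test, Benjamini-Hochberg over 14432 genes), where 19.7% of all genes tested rose and 19.8% fell. Without WT culture 2, 13 members rose, and without cKO culture 1 or 3 only 2 fell. Fewer of all genes were called there as well: 29.8%, 29.7% and 27.9% in that order, in either direction, beside 39.5% with all cultures. The median log2 fold change was 0.25 over the members and 0.002 over all genes. In 28 of 36 members the groups did not overlap, 22 with all cKO cultures above and 6 with all below, against 50.4% of all genes. In these bulk samples, fewer cells of a type and less RNA per cell cannot be told apart.

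**Figure D1:**
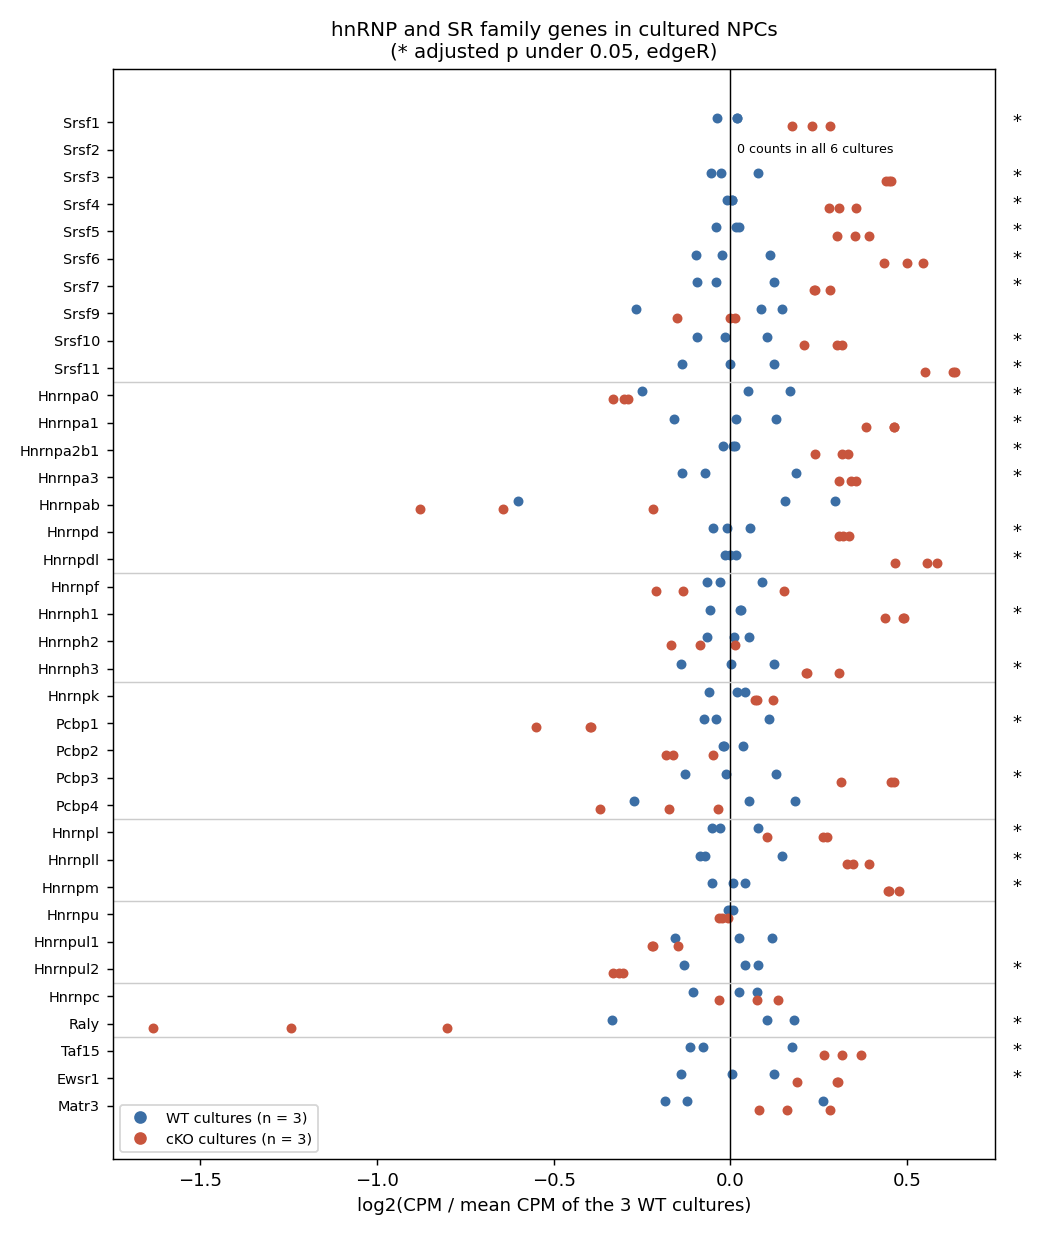
Each member's level in the 3 WT (blue) and 3 cKO (red) cultures on a log2 scale relative to the WT mean (x axis), with genes in rows by family; each point is 1 culture and a star marks an adjusted p under 0.05. The red points lie to the right in 8 of the 9 SR genes that were tested, while Hnrnpa0, Pcbp1, Hnrnpul2 and Raly lie to the left.

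Among the SR genes 8 of 9 tested rose and 0 fell, with a median log2 fold change of 0.32. Srsf11, an SR-related protein linked to small exons, had 262, 219 and 241 CPM in WT and 374, 353 and 373 CPM in cKO cultures. All cKO cultures lay above all WT cultures, and the log2 fold change of 0.61 ± 0.08 (SE, n = 3 per group) was the largest rise of any member (adjusted p = 7.7e-05, edgeR). Srsf6, which like Srsf4 and Srsf5 carries a pair of RNA recognition motifs and a long RS tail, had 286, 248 and 260 CPM in WT and 374, 358 and 386 CPM in cKO, with a log2 fold change of 0.49 ± 0.08 (SE, adjusted p = 0.000316, edgeR). Srsf3, the smallest SR protein and a link between splicing and mRNA export, had 211, 197 and 193 CPM in WT and 274, 273 and 272 CPM in cKO, and rose by 0.45 ± 0.07 (SE, adjusted p = 0.000333, edgeR). The 3 cKO cultures differed less from each other in Srsf3 than the WT cultures did.

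Srsf5 had 243, 254 and 252 CPM in WT and 308, 319 and 328 CPM in cKO cultures (log2 fold change 0.35). Srsf4 had 61.0, 61.5 and 61.6 CPM in WT and 74.5, 78.5 and 76.0 CPM in cKO (log2 fold change 0.31). In both genes the groups were clearly apart, with 61.6 CPM as the highest WT and 74.5 CPM as the lowest cKO value of Srsf4. Srsf10, a repressor of splicing when dephosphorylated (log2 fold change 0.28), Srsf7, a close relative of Srsf3 (0.25), and Srsf1, the founding member (0.23), rose least, with adjusted p of 0.013, 0.018 and 0.024 (edgeR). These 3 calls were lost when single cultures were left out, in 3, 4 and 5 of the 6 cases. Srsf9, a small relative of Srsf1, had 35.9, 47.9 and 45.9 CPM in WT and 39.0, 43.7 and 43.2 CPM in cKO, with overlapping groups and no call (log2 fold change -0.04, adjusted p = 0.79, edgeR).

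In the A/B/D group of hnRNPs 5 of 7 genes rose and 1 fell. Hnrnpdl, which also binds AU-rich elements, had 174, 172 and 176 CPM in WT and 241, 262 and 257 CPM in cKO cultures. The log2 fold change of Hnrnpdl was 0.54 ± 0.07 (SE, n = 3 per group, adjusted p = 6.9e-05, edgeR), and the WT cultures lay within 5 CPM of each other. Hnrnpa1, the best known exon silencer, had 270, 330 and 305 CPM in WT and 394, 416 and 416 CPM in cKO (log2 fold change 0.44). Many processed pseudogenes resemble Hnrnpa1, so reads could be split among copies and its value is less certain. Hnrnpa3 (0.33), Hnrnpd, the AU-rich element binder AUF1 (0.32), and Hnrnpa2b1, known for RNA sorting into granules (0.30), also rose on the log2 scale, with the calls of Hnrnpa3 and Hnrnpa2b1 each lost in 1 of the 6 cases of a culture left out. Hnrnpab had 89.5, 167 and 151 CPM in WT and 73.8, 117 and 86.9 CPM in cKO, with overlap and no call (adjusted p = 0.21, edgeR), but 65.1% of its span is shared with Phykpl. With the replicate number as a block in the fit, Hnrnpab was called lower (adjusted p = 2.0e-05, edgeR).

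Hnrnpa0, a relative of A1 encoded by a single exon (chr13:58125879-58128556, mm10), was the fall of the group. It had 361, 483 and 443.8 CPM in WT and 341, 348 and 351 CPM in the cKO group. Hnrnpa0 fell by 0.31 ± 0.10 on the log2 scale (SE, adjusted p = 0.024, edgeR). The groups did not overlap, but WT culture 1 lay close to the cKO cultures. The call was lost in 4 of the 6 cases of a culture left out and after removal of a trend with gene span.

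In the F/H group, which binds runs of G, Hnrnph1 had 348, 328 and 349 CPM in WT and 480, 463 and 480 CPM in cKO cultures. Its log2 fold change was 0.47 ± 0.08 (SE, n = 3 per group, adjusted p = 0.00025, edgeR). Hnrnph3 rose by 0.25 on the log2 scale (adjusted p = 0.038, edgeR), a call lost when any culture but WT culture 3 was left out. Hnrnpf and the X-linked Hnrnph2 were not called, at log2 fold changes of -0.06 and -0.08. All 3 members of the L and M group rose: Hnrnpm (log2 fold change 0.46), which had 211, 219 and 225 CPM in WT and 304, 297 and 298 CPM in cKO, Hnrnpll (0.36), an exon silencer known from lymphocytes, and Hnrnpl (0.22), which binds CA repeats. The call of Hnrnpl, at an adjusted p of 0.047 (edgeR), was lost in 8 of 15 alternative analyses.

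The poly(C)-binding genes were split. Pcbp1, a protein of translation and mRNA stability encoded by a single exon (chr6:86524492-86526321, mm10), had 252, 280 and 246 CPM in WT and 177, 197 and 197 CPM in cKO cultures. It fell by 0.45 ± 0.08 on the log2 scale (SE, n = 3 per group, adjusted p = 0.000745, edgeR). Pcbp3, a less studied relative, had 17.5, 20.9 and 19.0 CPM in WT and 26.2, 23.8 and 26.4 CPM in cKO, a log2 fold change of 0.42. The highest WT value of Pcbp3 lay below the lowest cKO value. Pcbp2, Pcbp4 and Hnrnpk, which docks many signaling proteins, were not called, at log2 fold changes of -0.13, -0.19 and 0.09, and 53.3% of the span of Pcbp2 is shared.

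No member of the hnRNP U group rose. Hnrnpul2 had 211, 244 and 238 CPM in WT and 183, 187 and 185 CPM in cKO cultures, and fell by 0.32 ± 0.08 on the log2 scale (SE, adjusted p = 0.00564, edgeR). Hnrnpu, a nuclear scaffold protein, had 742, 737 and 735 CPM in WT and 721, 726 and 734 CPM in cKO, a log2 fold change of -0.02 with no call, and Hnrnpul1 was not called at -0.20. Of the rest, Taf15 (0.32) and Ewsr1 (0.27), both FET proteins of transcription and splicing, rose on the log2 scale, but the calls were lost in 2 and 4 of the 6 cases of a culture left out. Hnrnpc, which binds runs of U, was not called (0.06). Matr3, a nuclear matrix protein, was not called (0.18), with 61.4% of its span shared. Raly, a relative of Hnrnpc, was called lower at 1.04, 0.724 and 0.981 CPM in WT against 0.294, 0.524 and 0.386 CPM in cKO, but the gene a (nonagouti) covers 99.6% of its length and the call was lost or could not be made in 7 of 15 alternatives.

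The gene models of the members were set beside this pattern. In GENCODE M21, on the same assembly, an NMD transcript was annotated for 15 of the 21 genes that rose, 0 of the 4 that fell and 6 of the 12 others, against 28.7% of 12439 coding genes tested. The 12 others include Srsf2, which was not tested and has annotated NMD transcripts. Of the 4 that fell, Hnrnpa0 and Pcbp1 have a single exon and so can hold no poison exon. Raly was near the floor, at means of 0.914 (WT) and 0.401 CPM (cKO). The 0 of 4 therefore says little. Among all coding genes tested, 25.4% of those with an annotated NMD transcript and 18.3% of those without one rose. The only single-exon members, Hnrnpa0 and Pcbp1, both fell. Of 236 coding genes with all coding transcripts in 1 exon, 11.9% rose and 28.0% fell, with a median log2 fold change of -0.22, so their direction was the more common one of such genes.

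The genes that act on or beside the members were counted in 4 lists, to be read against the 19.7% of all genes tested that rose and the 19.8% that fell. Of 13 SR protein kinases and import factors 6 rose and 0 fell, with a median log2 fold change of 0.21. Srpk3, an SR protein kinase best known from muscle, had 6.98, 9.64 and 12.9 CPM in WT and 18.9, 26.1 and 26.4 CPM in cKO cultures (log2 fold change 1.27 ± 0.19, SE). Tnpo1, the transportin that carries hnRNP A1 into the nucleus, had 471, 388 and 385 CPM in WT and 708, 642 and 658 CPM in cKO (0.69 ± 0.09, SE). In both genes the groups were apart. Of 26 other SR-related and hnRNP-associated genes 13 rose and 0 fell, led by the speckle protein gene Srrm2 (log2 fold change 0.68) and the paraspeckle gene Pspc1 (0.51). Of 44 core spliceosome genes 7 rose and 1 fell, led by Snrpb2 of the U2 particle (0.49) and Dhx15 (0.42), with Eftud2 of the U5 particle as the fall (-0.29). The share of core spliceosome genes that rose was thus below that of all genes, and their median was 0.01. Of 14 NMD factors 5 rose and 1 fell, led by Upf3b (0.51) and Smg9 (0.51), with Smg8 as the fall (-0.42).

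Other gene groups moved with genotype in the same cultures. Of 17 tested neuron differentiation genes 12 fell and 0 rose, and their summed level was 2568 to 2867 CPM in WT and 2508 to 2620 CPM in cKO, with overlap. Stmn2, a neuronal tubulin regulator, had 15.7, 13.2 and 16.4 CPM in WT and 0.147, 0.116 and 0.193 CPM in cKO. Of 11 tested astrocyte genes 8 fell and 2 rose, at sums of 8641 to 9272 CPM in WT and 5983 to 6670 CPM in cKO. Of 9 tested genes of the oligodendrocyte lineage 3 rose and 3 fell, at 8935 to 9521 CPM in WT and 9768 to 9939 CPM in cKO. Neurod1, Tubb3, Nefl, Gfap and Gpr17 had 0 counts in all 6 cultures, and each of them lies wholly inside other genes. Of 52 G2/M genes 43 rose and 3 fell, at 2497 to 2768 CPM in WT and 3058 to 3408 CPM in cKO, and of 43 tested S phase genes 21 rose and 0 fell. Top2a, a G2/M gene, had 68.7, 60.3 and 50.6 CPM in WT and 99.7, 124 and 140 CPM in cKO. The part of these groups in the members' rise was not tested.

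In the embryonic tissue the members could be followed through the neuronal lineage. After filters, 8214 WT and 9560 cKO cells were clustered, and classes were named from marker genes: APs (948 WT and 1284 cKO cells), intermediate progenitors (547 and 600), migrating neurons (903 and 813), immature neurons (923 and 1133) and cells of the ganglionic eminence (GE, 1083 and 1512), which lies outside the Emx1-Cre domain. Some named clusters had no class marker among their 10 leading genes and were named from markers raised further down: 1 of the 3 AP clusters (309 WT and 421 cKO cells, led by cell cycle genes), 2 of the 4 intermediate progenitor clusters and 1 of the 2 immature neuron clusters (534 and 619 cells). Unnamed clusters held 42.9% of WT and 40.4% of cKO cells, and 22 barcodes occurred in both libraries. No member was among the 2000 variable genes used for clustering. The AP markers summed to 11150 and 11300 CPM in APs of the WT and cKO embryo and to 299 and 360 CPM in immature neurons. Levels are UMIs of a gene scaled by all UMIs of the class, also given as CPM. A single embryo stands for each genotype, so genotypes were not tested in the tissue and intervals cover counting error only.

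The members declined from progenitors to neurons in both embryos. Their summed level in the WT embryo was 14630 CPM in APs, 13190 CPM in intermediate progenitors, 11160 CPM in migrating neurons and 8479 CPM in immature neurons. In the cKO embryo it was 14210, 12750, 10770 and 8226 CPM in the same order. GE cells lay between, at 10560 CPM (WT) and 10300 CPM (cKO). Cajal-Retzius cells held 8393 and 8586 CPM, endothelial cells 8312 and 9019, the class named meningeal fibroblasts 8620 and 8394, and microglia 6921 and 6822. In the class named meningeal fibroblasts, pericyte markers summed to 6079 (WT) and 3752 CPM (cKO), beside 4689 and 7323 CPM for fibroblast markers. At a finer clustering, 103 WT and 82 cKO cells were named pericytes, and only 13 and 26 meningeal fibroblasts. The sums of this class are therefore not those of fibroblasts alone. Red blood cells held 1933 and 2748 CPM. There 9 red-cell marker genes took 782200 and 702000 CPM, which scales down every other gene, so this sum is not comparable with the other classes. In both embryos, 28 members were higher in APs than in intermediate progenitors, 33 higher in these than in migrating neurons and 33 higher in migrating than in immature neurons, where 49.8% to 51.1% of all genes were higher at each step. In APs, 27 of 37 members were at least 0.5 higher on the log2 scale than in immature neurons in both embryos and 0 were as much lower, where 35.8% of 11860 genes were higher and 22.0% lower. The median log2 difference over both embryos was 0.80 for the members and 0.24 for all genes.

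**Figure D2:**
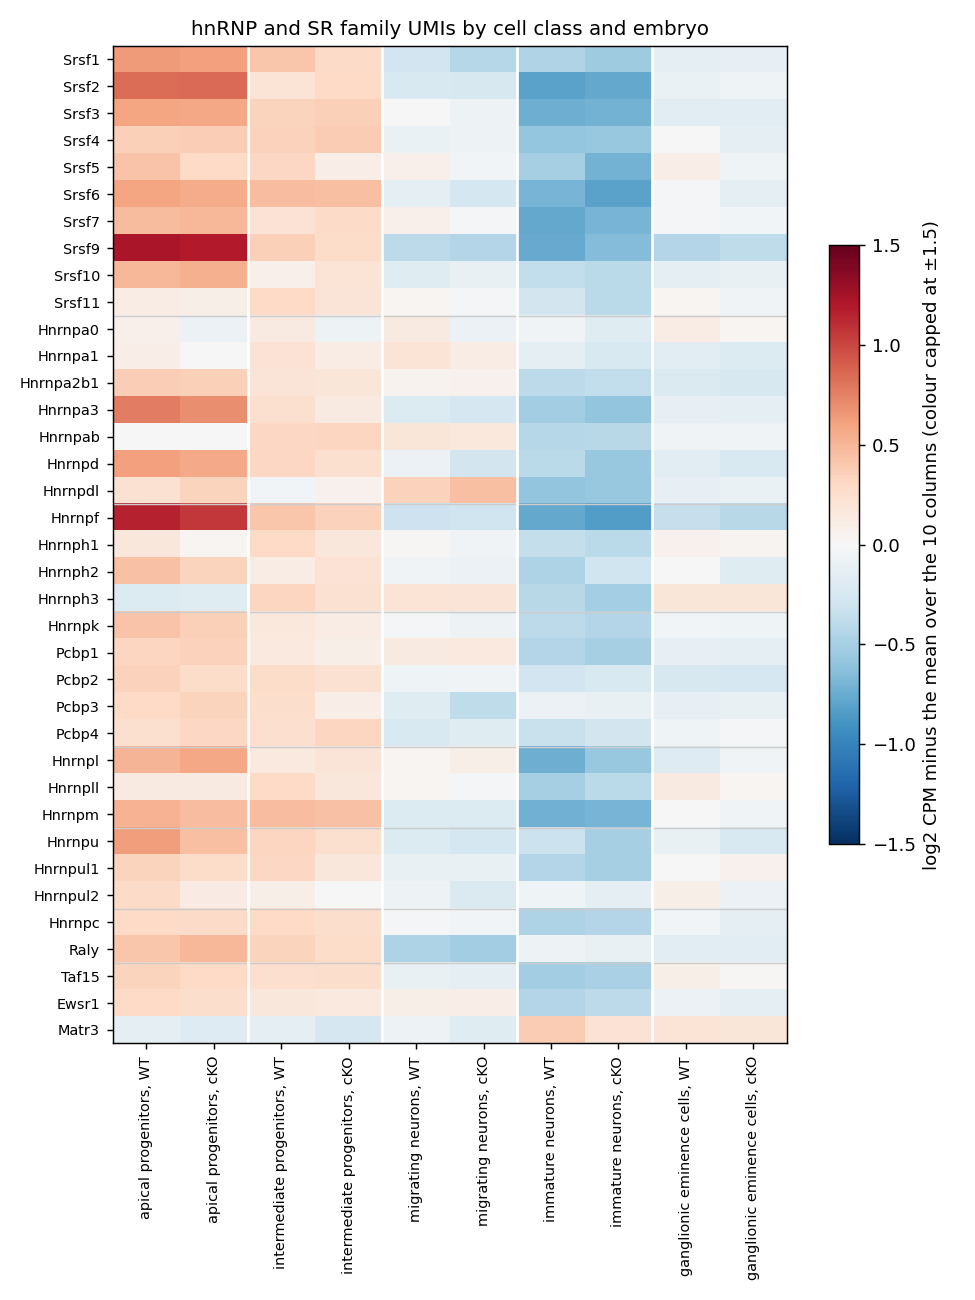
Level of each member (rows, by family) in 5 cell classes of the WT and cKO embryo (columns), as log2 CPM minus the gene's mean over the 10 columns; red is above and blue below that mean. Most rows run from red in apical progenitors to blue in immature neurons in both embryos, with Srsf9 and Hnrnpf the steepest and Matr3 the other way.

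Srsf9 and Hnrnpf showed the steepest decline. Srsf9 was at 253 CPM in APs, 139 CPM in intermediate progenitors, 82.2 CPM in migrating and 64.0 CPM in immature neurons of the WT embryo, and at 247, 131, 79.7 and 68.6 CPM in the cKO embryo. Its level in APs was 3.95 and 3.60 times that in immature neurons, and the drop was largest at the first step. Hnrnpf was at 499, 298, 180 and 131 CPM in WT and at 467, 283, 182 and 125 CPM in cKO, a ratio of 3.81 and 3.75 between APs and immature neurons. Neither gene was called in the cultures. Srsf2, a nuclear SR protein that does not shuttle, was not counted in the cultures but was well covered here, at 492, 318, 236 and 158 CPM in WT and 499, 340, 235 and 163 CPM in cKO. Srsf3 followed at 992, 831, 658 and 397 CPM in WT and at 988, 845, 626 and 402 CPM in cKO.

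All SR genes but Srsf11 passed the 0.5 difference in both embryos, and Srsf11 had log2 differences of 0.39 (WT) and 0.499 (cKO). Among hnRNPs, Hnrnpa3 (log2 difference 1.29 in WT and 1.28 in cKO), Hnrnpm (1.24 and 1.16) and Hnrnpl (1.24 and 1.15) had the next steepest declines after Hnrnpf. Hnrnpa0 (0.13 and 0.09) and Hnrnpa1 (0.24 and 0.23) varied little, and Hnrnpa1 was lower in APs (1036 and 971 CPM) than in intermediate progenitors (1125 and 1040 CPM) and migrating neurons (1112 and 1041 CPM). Hnrnpdl was highest in migrating neurons, at 372 CPM (WT) and 401 CPM (cKO), beside 343 and 368 CPM in APs and 194 and 198 CPM in immature neurons. Matr3 was the member with the opposite order, at 196 and 188 CPM in APs and 280 and 250 CPM in immature neurons. Of the lists, 35 of 44 core spliceosome genes, 9 of 26 other SR-related genes, 3 of 12 SR kinases and import factors and 5 of 14 NMD factors were at least 0.5 higher in APs in both embryos. Against the 35.8% of all genes, this share was above the background in the core spliceosome and at or below it in the other 3 lists.

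The members also differed by cell cycle phase within APs, as called from Seurat's S and G2/M lists, which hold none of them. In both embryos 8 of 37 members were at least 0.5 higher on the log2 scale in G2/M than in G1 and 0 as much lower, where 10.9% of 10273 genes were higher and 8.93% lower. The median log2 difference was 0.31 for the members and -0.03 for all genes. Srsf3 was at 581, 983 and 1112 CPM in G1, S and G2/M of the WT embryo and at 661, 980 and 1054 CPM in the cKO embryo. Srsf2 was at 274, 562 and 514 CPM in WT and at 304, 513 and 524 CPM in cKO. In both SR genes the step lay between G1 and S. Srsf7, Raly, Hnrnpul2, Hnrnpul1, Hnrnpdl and Hnrnpd were the others, while Hnrnpc had log2 differences of -0.08 and -0.12 and Srsf5 of 0.09 and -0.01.

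**Figure D3:**
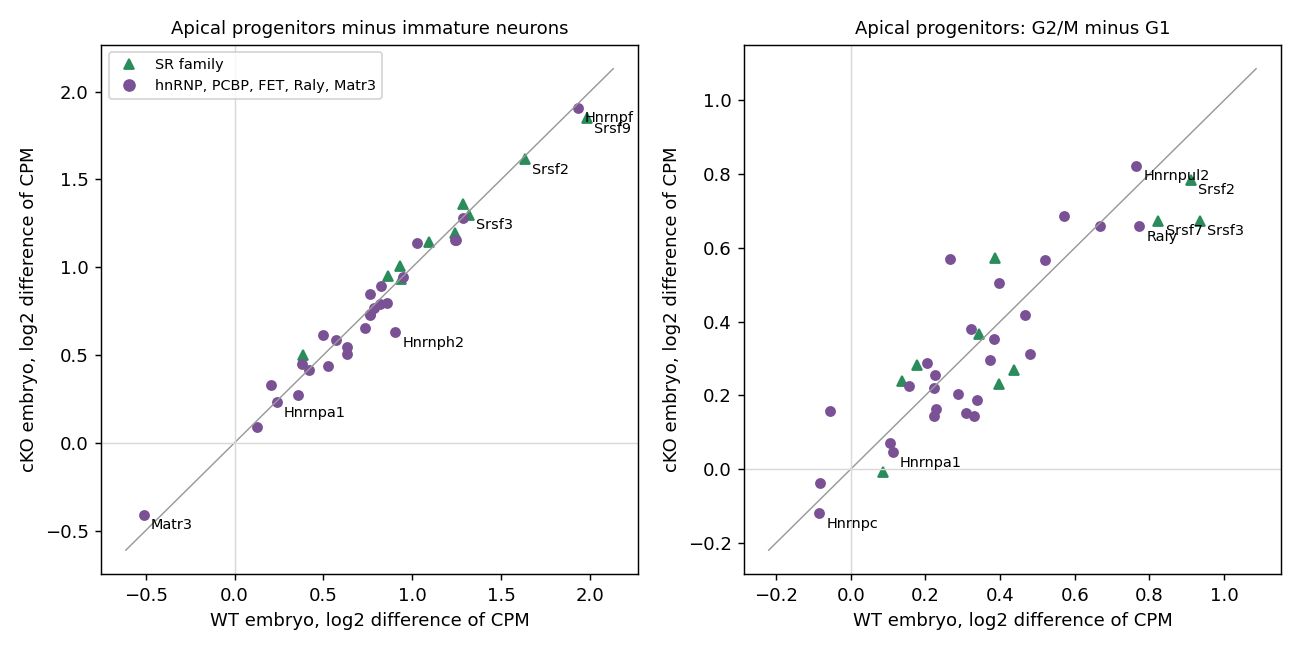
Log2 difference of each member in the WT embryo (x axis) against the cKO embryo (y axis), for apical progenitors minus immature neurons (left) and for G2/M minus G1 within apical progenitors (right); triangles are SR genes, circles the other members and the line marks equal values. In the left panel 36 of 37 members are above 0 in both embryos, with Matr3 below, and the points lie near the line.

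Between genotypes, the members differed little in APs. None of the 37 was 0.2 or more higher or lower on the log2 scale in cKO than in WT APs, where 12.1% of 10273 genes were higher and 10.2% lower by that much. This background takes in genes from 200 UMIs upward. The least covered member, Pcbp3, had 568 UMIs in WT and 839 UMIs in cKO APs. Genes with few UMIs pass the limit more easily by counting error. Whether the members differed less than genes of like UMI count was not tested. The log2 ratios of the members ran from -0.18 to 0.10, and for 33 members the whole 95% interval (exact conditional) lay within 0.2 of 0. Hnrnpu had 641 CPM in WT APs and 567 CPM in cKO APs, the lowest log2 ratio (-0.18, 95% interval -0.22 to -0.13). Hnrnpul2 was at 107 and 94.95 CPM (-0.17, -0.27 to -0.07) and Hnrnpa0 at 696 and 622 CPM (-0.16, -0.20 to -0.12). Hnrnpdl had the highest ratio, at 343 and 368 CPM (0.10, 0.05 to 0.16). The interval lay below 0 for 12 members and above 0 for Hnrnpdl alone. The median log2 ratio was -0.03 for the members and -0.006 for all genes. Interval width depends on the UMI count. The shares of all genes with intervals below 0, above 0 or within 0.2 of 0 were not computed, so these counts have no background. The APs included a cluster with a median of 2773 UMIs per cell; without it, and with the phases weighted equally, still 0 members passed the limit.

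**Figure D4:**
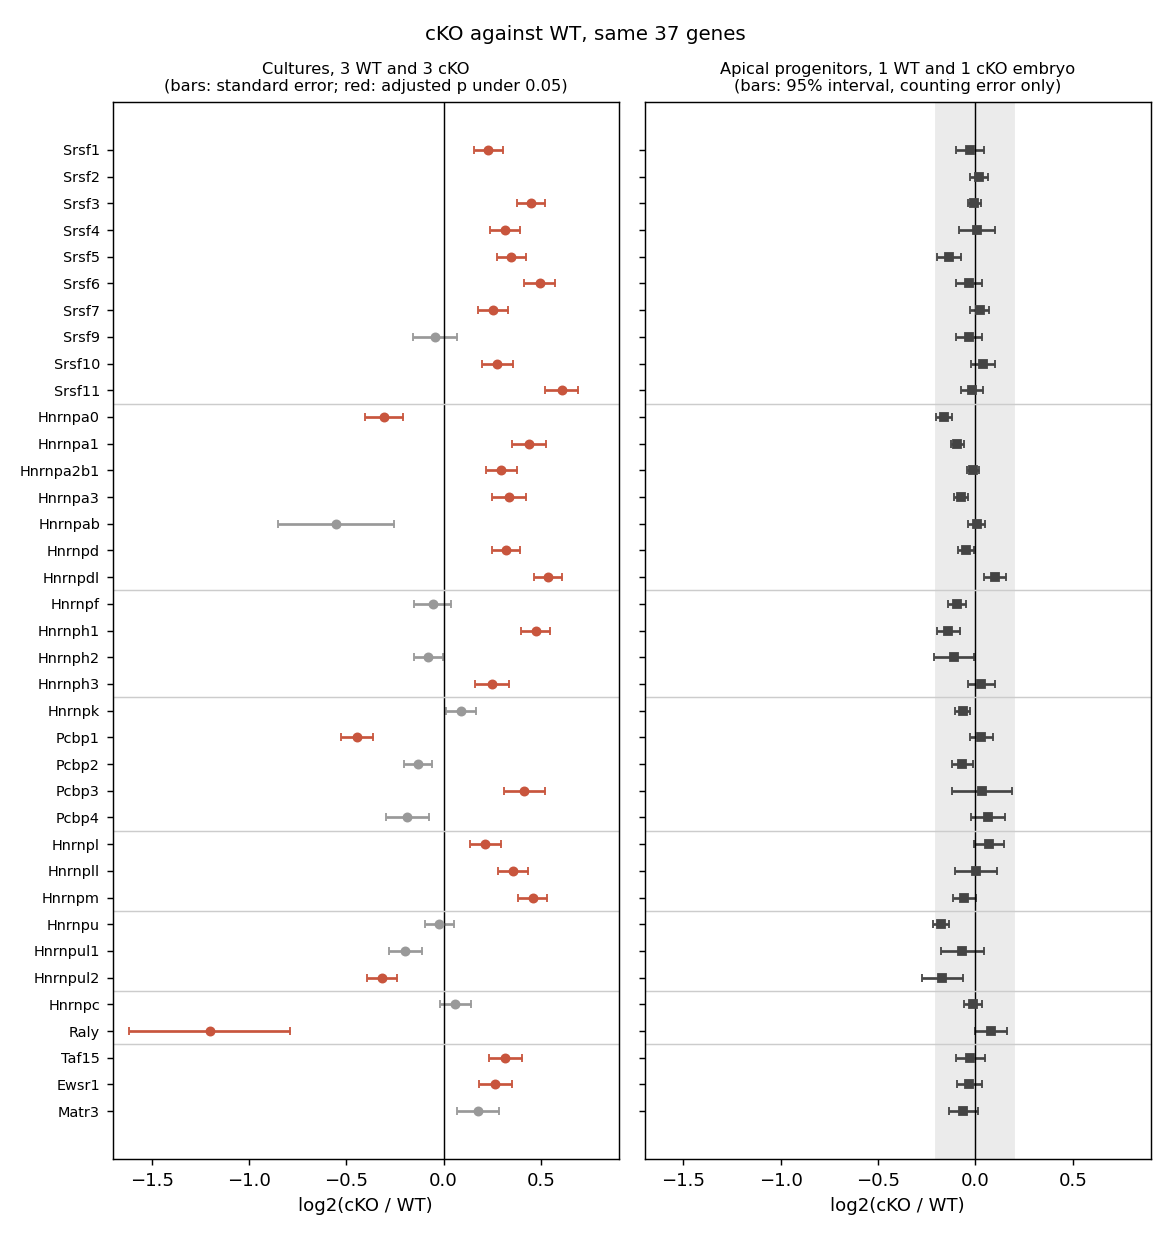
Log2 ratio of cKO over WT for each member (rows, by family) in the cultures (left, 3 WT and 3 cKO, bars are the standard error, red where the adjusted p is under 0.05) and in apical progenitors of 1 WT and 1 cKO embryo (right, bars are 95% intervals of counting error only, grey band 0.2 to either side of 0). The left panel spreads from -1.20 to 0.61, the right from -0.18 to 0.10; Srsf2 has no value on the left.

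The 21 members that rose in the cultures had a median log2 ratio of -0.02 in APs, 13 of them below 0, against 0.34 in the cultures. In all 21 the upper end of the AP interval lay below the culture value. These genes were picked by their culture values, and the error of those values is left out, so the comparison cannot decide whether the data sets differ. For Hnrnpl the culture value was 0.22 ± 0.08 (SE) and the AP interval reached 0.15. Srsf6, for example, had 244 CPM in WT APs and 238 CPM in cKO APs (log2 ratio -0.03, -0.10 to 0.04) and Srsf11 at 364 and 360 CPM (-0.02, -0.07 to 0.04). Hnrnph1 was at 338 and 307 CPM (-0.14, -0.20 to -0.08). Of the 4 that fell in the cultures, Hnrnpa0 and Hnrnpul2 were also lower in cKO APs, while Pcbp1 (0.03, -0.03 to 0.09) and Raly (0.08, -0.00 to 0.16) were not. The 2 data sets differ in cells, library type and unit, and the difference between them was not tested. Within APs, 14 of 52 G2/M genes were 0.2 or more lower and 1 higher, and 28 of 44 S genes were higher and 1 lower in cKO, with 532 of 1284 cKO and 296 of 948 WT cells called in S phase. The part of these phases in the small differences between APs was tested only by the equal weighting above.

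In the other classes few members passed the 0.2 limit. Hnrnpa0 was lower in cKO intermediate progenitors (728 CPM in WT and 628 CPM in cKO, log2 ratio -0.21, -0.27 to -0.16) and in migrating neurons (724 and 623 CPM, -0.22, -0.27 to -0.17). Srsf5 was lower in intermediate progenitors (283 and 246 CPM, -0.20, -0.29 to -0.12) and immature neurons (162 and 139 CPM, -0.22, -0.30 to -0.13). In APs Srsf5 had 308 and 281 CPM (-0.14, -0.20 to -0.08), so it was lower in cKO in each of these classes, whereas it rose in the cultures. Pcbp3 was at 32.5 and 28.2 CPM in migrating neurons (-0.20), an interval that includes 0 (-0.44 to 0.03). Smaller classes, of 24 to 116 cells per embryo, are not described by genotype. In GE cells 0 members passed the limit, beside 973 genes higher and 723 lower of 9257. Of the 5 members with the lowest ratios in APs, 4 also had intervals below 0 in GE cells: Hnrnpul2 had a log2 ratio of -0.17 there (93 and 83 CPM, -0.30 to -0.03), Srsf5 of -0.16 (245 and 219 CPM, -0.24 to -0.07), Hnrnpu of -0.12 (386 and 354 CPM, -0.19 to -0.06) and Hnrnpa0 of -0.08 (714 and 675 CPM, -0.13 to -0.04). The fifth, Hnrnph1, had 315 and 309 CPM in GE cells (-0.03, -0.10 to 0.05). These 5 were picked by their AP ratios. Other members also had GE intervals below 0, such as Hnrnph2 (-0.17, -0.32 to -0.02) and Srsf6 (-0.13, -0.23 to -0.03), while that of Hnrnpl lay above 0 (0.14, 0.02 to 0.26). The share of all genes with such intervals was not computed, and the cause of these differences was not tested.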

How the data were processed

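The 37 members, the gene lists and the tests were chosen with earlier results of these data known. For RNA-seq the authors filtered paired reads, aligned them to mm10 with HISAT2 and deposited raw counts per gene and culture; how reads were assigned to genes (program, annotation, strand) is not given in the sources used here. Matrices of scRNA-seq, deposited by the authors, hold unnormalized UMI counts written by Cell Ranger 7.0.0 (10x Genomics 3′ kit). LACE-seq samples were not analysed here.

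The 6 cultures were tested with edgeR 4.0.16 (R 4.3.3): after filterByExpr (14432 genes kept) and TMM scaling, cKO was compared with WT by the quasi-likelihood test (robust fit), and p-values were adjusted by Benjamini-Hochberg, with calls at 0.05. The study names DESeq2, which was an alternative here. An exact permutation test of 3 against 3 cannot go below 0.1. The fit was tested on simulated data. Cells were required to have 200 or more genes and no more than 10% mitochondrial UMIs, and were clustered with Seurat 5.3.0 (2000 variable genes, 30 principal components, 20 neighbours, resolution 0.8), without integration. Scrublet (scanpy 1.11.5) marked 284 WT and 446 cKO cells as doublets, which were left out only as an alternative. A cluster was named with a mean marker score of 0.5 or more and at least 3 markers raised 1.5-fold, if its 10 leading genes held either more markers of that class than of any other or no marker of any class, a rule set after the clusters had been seen. UMIs were summed per class; ratios need at least 200 UMIs and have exact 95% Clopper-Pearson intervals. All members were named; of the supporting lists the 2 largest rises and falls among called genes, and Top2a and Stmn2 as single markers.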

Additional observations from a re-analysis of the deposited data

How the results depend on the processing

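Over 15 other analyses of the cultures, 13 to 21 members rose and 2 to 7 fell. The share of all genes called in either direction moved as well, from 26.3% to 44.9%, beside 39.5% in the main fit. Leaving out 1 culture at a time gave 13 (without WT culture 2) to 19 rises and 2 (without cKO culture 1 or 3) to 6 falls, where 27.9% to 43.0% of all genes were called. Over all genes, deviations of same-numbered cultures had correlations of 0.30, -0.03 and 0.09, and those of WT culture 3 and cKO culture 2 of 0.33. With 3 cultures per group, these values neither show nor exclude that the numbers pair the cultures. With the replicate number as a block, 21 members rose and 7 fell, where 44.4% of all genes were called. The falls added were Hnrnpab, Hnrnpul1 and Pcbp4 (adjusted p = 2.0e-05, 0.033 and 0.036, edgeR). Of the 25 called members, 14 kept their call in all 15 analyses (12 rises and 2 falls, Pcbp1 and Hnrnpul2), and 0 changed sign. Genes without a call changed sign near 0: Hnrnpu (0.0245) and Srsf9 (0.0289) with the trend of gene span removed, and, with 1 culture left out at a time, Srsf9 (-0.168 to 0.0236, above 0 without WT culture 2, WT culture 3 or cKO culture 1) and Hnrnpf (-0.1718 to 0.0062, above 0 without cKO culture 1); the cause was not tested. Without members whose span is shared by over 50%, 21 rose and 3 fell. In APs 0 members passed 0.2 under all settings tried, and 27 or 28 passed 0.5 against immature neurons. Leaving out the low-UMI cluster and the members with shared span were chosen after seeing the data. With 1 embryo per genotype, the spread between embryos is not known.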
